A study of Mus musculus with 8 samples.

Results

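Septins are GTP-binding proteins of the cytoskeleton that join end to end into rods and filaments. The 9 septin genes examined here in mouse hepatocytes were *Septin2*, *Septin4*, *Septin5*, *Septin6*, *Septin7*, *Septin8*, *Septin9*, *Septin10* and *Septin11*, out of 21368 genes with a named probe on the array. They were found through the accession of each array probe, which gave 14 probes, and every probe is described. The family was selected on the difference between the genotypes, in which *Septin7* was among the largest rises in the knockout hepatocytes. All differences between genotypes in septin levels are therefore given here as descriptions, and no p-value is printed for a septin. Counts of septins that passed a p threshold are given below only beside the counts over all genes, and nothing is read from them.

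Total RNA of isolated hepatocytes was measured in 8 male mice aged 12 to 14 weeks on a standard diet, with 1 array per mouse. The 4 hCNR1-/- mice, labelled strain CNRO Alb-Cre, lacked the cannabinoid 1 receptor gene *Cnr1* in cells in which the albumin promoter drives Cre, which are mainly hepatocytes. The 4 hCNR1+/+ control mice, labelled strain CNRO, were littermates. The strain labels put Alb-Cre in the hCNR1-/- mice, so the transgene and the loss of the receptor cannot be told apart.

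Septins fall into 4 groups by sequence, and each group has its own position in the rod. *Septin2*, *Septin4* and *Septin5* belong to the group named after *Septin2*. *Septin6*, *Septin8*, *Septin10* and *Septin11* belong to the group of *Septin6*, *Septin9* belongs to that of *Septin3*, and *Septin7* is alone in its group, so that no other member can take its place. The rods assemble on membranes, actin filaments and microtubules. They form the ring at the cleavage furrow of dividing cells, act as diffusion barriers and cages around bacteria, and guide vesicles to the membrane. In the liver, septins are known on lipid droplets and microtubules of hepatocytes, and *Septin4* is known as a marker of stellate cells.

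The windows around the transcription starts of *Septin7*, the member put forward for its rise, and of *Septin2*, the member whose values followed it most closely over the arrays among those detected on every array, are printed to show the sequence from which these transcripts arise. Each window runs from 250 bases before to 50 bases after a RefSeq start in the assembly GRCm38.p6, on the plus strand, and the capitals mark each CpG, the base pair step at which mammalian DNA is methylated. *Septin7* has a pair of RefSeq starts, at chr9:25251741-25252040 and chr9:25252642-25252941, and the first *Septin2* window lies at chr1:93478743-93479042.
Septin7, first start: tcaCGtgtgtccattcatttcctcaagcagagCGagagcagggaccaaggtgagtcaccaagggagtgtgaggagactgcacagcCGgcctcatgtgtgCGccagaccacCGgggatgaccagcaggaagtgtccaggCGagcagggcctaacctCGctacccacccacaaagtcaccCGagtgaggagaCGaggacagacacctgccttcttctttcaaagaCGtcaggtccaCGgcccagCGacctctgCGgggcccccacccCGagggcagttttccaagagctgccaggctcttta
Septin7, second start: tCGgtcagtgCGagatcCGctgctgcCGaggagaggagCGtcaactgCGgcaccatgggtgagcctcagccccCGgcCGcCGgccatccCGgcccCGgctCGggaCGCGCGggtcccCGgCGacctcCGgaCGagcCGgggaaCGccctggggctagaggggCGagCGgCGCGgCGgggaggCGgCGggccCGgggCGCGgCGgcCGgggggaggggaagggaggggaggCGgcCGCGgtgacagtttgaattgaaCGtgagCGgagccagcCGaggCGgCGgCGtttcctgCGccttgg
Septin2, first start: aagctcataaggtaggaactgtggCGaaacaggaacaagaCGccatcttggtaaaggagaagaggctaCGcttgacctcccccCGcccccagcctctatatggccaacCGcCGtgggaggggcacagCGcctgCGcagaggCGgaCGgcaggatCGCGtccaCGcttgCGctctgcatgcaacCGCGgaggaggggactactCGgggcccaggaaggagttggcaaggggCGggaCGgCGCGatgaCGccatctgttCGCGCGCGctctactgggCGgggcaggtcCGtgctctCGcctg
The windows held 14 and 43 CpG for *Septin7* and 29 for *Septin2*, against a median of 7 over 32851 RefSeq start windows of the same length. The second *Septin7* window had a GC content of 77.0%, and 97.4% of all windows held fewer CpG. The GC box (GGGCGG on either strand) was found in 10 of the 16 windows of the 7 septin genes that matched the sequence table and in 35.7% of all windows. It was present in the *Septin2* window and in neither *Septin7* window. The cAMP response element (TGACGTCA) and the TATA box (TATAAA on either strand) were found in none of the 16 windows and in 1.79% and 13.6% of all windows, and CCAAT on either strand in 2 of the 16 and in 37.4% of all windows. These are matches of letters only.

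The arrays differed in brightness. Before scaling, the 75th percentile of the spot intensity ran from 62.0 to 139 in hCNR1+/+ and from 29.3 to 124 in hCNR1-/- mice, and the software called 35.0% to 42.3% and 28.6% to 39.3% of spots well above background, which is written here as detected. Replicate 4 was the dimmest array of both genotypes. The hCNR1+/+ arrays lay in row 1 of the slide and the hCNR1-/- arrays in row 2, so that the row on the slide cannot be told apart from the genotype. Values below are log2 signals after subtraction of the 75th percentile of the array, written as log2 signal, and a rise by 1 on this scale is a doubling. The 17 tested hepatocyte markers were detected on all 8 arrays, with a mean log2 signal of 8.08 ± 0.33 in hCNR1+/+ and 8.10 ± 0.15 in hCNR1-/- mice (SD, n = 4). Single markers differed in both directions, with 8 higher and 9 lower in hCNR1-/- mice. Groups did not overlap for *Apob* (log2 difference 1.63), *Pck1* (-1.81) and *Ass1* (-1.14). That is 1 higher and 2 lower, against 12.7% and 5.04% of all genes tested. The *Cnr1* probe was detected on 0 of 8 arrays, so it did not check the genotype labels.

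Of the 14 septin probes, 7 probes of 6 genes (*Septin2*, *Septin7*, *Septin8*, *Septin9*, *Septin10* and *Septin11*) were detected on 4 arrays or more, which was the condition for testing. *Septin4*, *Septin5* and *Septin6* had no such probe. The plot of unscaled intensities gives every probe on every array.

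**Figure D1:**
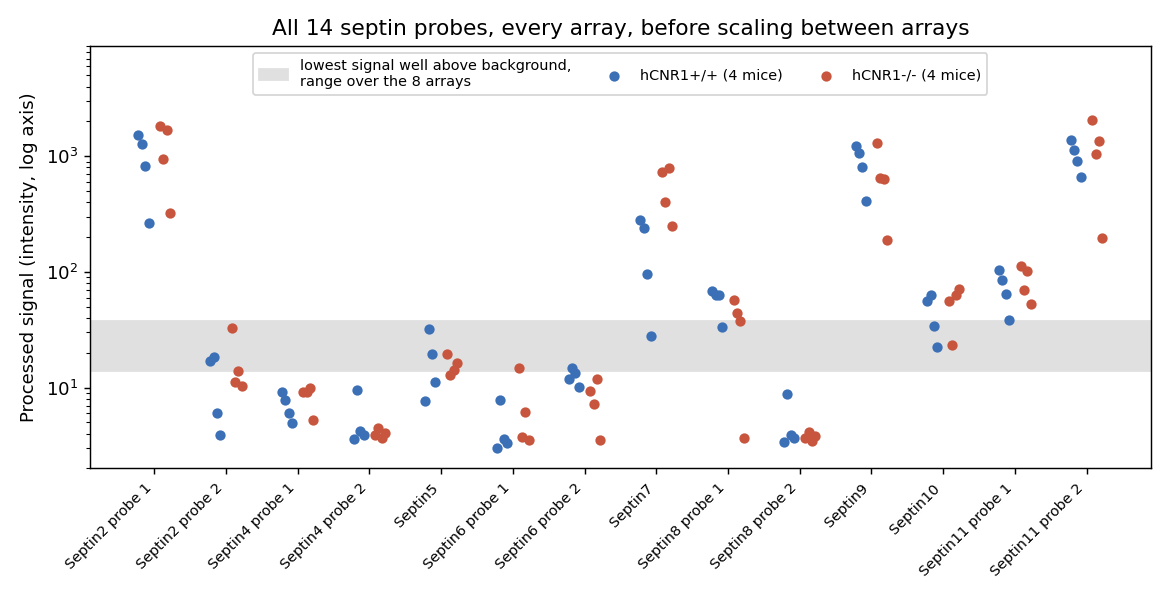
Background-corrected spot intensity (log axis) of all 14 septin probes on the 8 arrays before scaling, with hCNR1+/+ mice in blue and hCNR1-/- mice in red; the grey band spans the lowest intensity called well above background on each array, 13.8 to 37.3. Both probes of Septin4 and of Septin6 and the second probe of Septin8 were detected on none of the arrays, whereas Septin7 was detected on all 8.

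*Septin7* is the subunit on which rods of other septins depend. Its single probe (A_55_P1955393) had log2 signals of 1.08, 0.78, -0.21 and -1.14 in the hCNR1+/+ mice, in the order of replicates 1 to 4, against 2.57, 2.35, 3.08 and 3.09 in the hCNR1-/- mice. All hCNR1-/- values lay above all hCNR1+/+ values, and the hCNR1+/+ mice spread more widely than the hCNR1-/- mice. The group means were 0.13 ± 1.01 and 2.77 ± 0.38 (SD, n = 4), a log2 fold change of 2.65 with a standard error (SE) of 0.46, or 6.26-fold. Of the 11072 genes tested, *Septin7* had the 25th largest rise. In unscaled intensity the probe read 280, 239, 95.5 and 28.1 in the hCNR1+/+ mice, in the order of replicates 1 to 4, against 735, 404, 798 and 250 in the hCNR1-/- mice. On the dimmest array of all, hCNR1-/- replicate 4, the unscaled *Septin7* intensity lay between those of the 2 brightest hCNR1+/+ values.

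Across all genes tested, 2.94% were called higher in hCNR1-/- and 1.3% lower at an adjusted p below 0.05 by limma, 325 genes against 144. This split was 101 against 209 with the percentile taken over probes detected on all 8 arrays, 25 against 25 with median scaling, 30 against 51 with the deposited z-scores and 1 against 29 without scaling. *Septin7* was the 1 septin among 6 tested that was called higher, and 0 septins were called lower; at an unadjusted p below 0.05 the counts were 2 and 0, where 14.7% and 6.92% of all genes tested were higher and lower. Since the family was chosen by this contrast, nothing is read from these counts. The *Septin7* log2 fold change was 2.22 without hCNR1+/+ replicate 4 and 2.96 without hCNR1+/+ replicate 1, the lowest and highest values with 1 array left out. The number of septins called higher was 0 without hCNR1+/+ replicate 3, hCNR1-/- replicate 1 or hCNR1-/- replicate 3, where the *Septin7* log2 fold changes were 2.54, 2.71 and 2.54. It was 2, *Septin7* and *Septin11*, without hCNR1-/- replicate 4.

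*Septin2* pairs with *Septin6* group members in the rod and is known from the base of the primary cilium and the cleavage furrow. Its bright probe (A_51_P214487) had log2 signals of 3.51, 3.21, 2.92 and 2.11 in the hCNR1+/+ mice, in the order of replicates 1 to 4, against 3.88, 3.58, 4.18 and 3.48 in the hCNR1-/- mice. The groups overlapped through hCNR1+/+ replicate 1, which lay just above hCNR1-/- replicate 4. The means were 2.94 ± 0.60 and 3.78 ± 0.32 (SD, n = 4), with a log2 fold change of 0.84 (SE 0.32). Without scaling between arrays this difference was 0.29. The other *Septin2* probe (A_52_P153327) was detected in 0 of the 4 hCNR1+/+ mice and in 1 of the 4 hCNR1-/- mice, with unscaled intensities from 3.91 to 32.8. No fold change is given for a probe measured on 1 array.

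The other members of the *Septin2* group were at or near background. *Septin5*, known from synaptic vesicle release, had 1 probe (A_55_P2039881), which was also detected in none of the hCNR1+/+ mice and in 1 hCNR1-/- mouse, with unscaled intensities from 7.63 to 31.8. No fold change is given for it either. *Septin4*, whose gene also gives rise to the proapoptotic protein ARTS, had 2 probes, both detected on 0 of 8 arrays. The unscaled intensities of the *Septin4* probes ran from 3.61 to 9.99, so no fold change is given.

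The *Septin6* group held *Septin6*, *Septin8*, *Septin10* and *Septin11*. Both *Septin6* probes were detected on 0 of 8 arrays, with unscaled intensities from 2.98 to 14.8. *Septin8*, a partner of the vesicle protein VAMP2 in neurons, had 1 probe that was tested (A_55_P1981664), with log2 signals of -0.95, -1.15, -0.79 and -0.88 in the hCNR1+/+ mice, in the order of replicates 1 to 4, against -1.11, -0.84, -1.33 and -2.99 in the hCNR1-/- mice. The values of all arrays but hCNR1-/- replicate 4, where the probe was not detected, lay between -1.33 and -0.79. The *Septin8* log2 fold change was -0.63 (SE 0.42) and -0.15 without hCNR1-/- replicate 4. The second *Septin8* probe (A_55_P1981670) was detected on 0 of 8 arrays, with unscaled intensities from 3.36 to 8.73.

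*Septin10* had 1 probe (A_52_P663585), with log2 signals of -1.24, -1.13, -1.68 and -1.45 in the hCNR1+/+ mice, in the order of replicates 1 to 4, against -1.15, -1.76, -0.58 and 1.28 in the hCNR1-/- mice. The groups overlapped, and hCNR1-/- replicate 4 stood above the other 7 arrays. In unscaled intensity the probe read 71.2 on that array, against 22.6 to 63.7 on the other 7. The means were -1.38 ± 0.24 and -0.55 ± 1.32 (SD, n = 4). The *Septin10* log2 fold change of 0.82 (SE 0.56) became 0.21 without hCNR1-/- replicate 4 and 0.27 without scaling between arrays.

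*Septin11*, which can stand in the rod where *Septin6* stands, was measured by 2 probes on all 8 arrays. The probe with the higher signal (A_66_P118513) had log2 signals of 3.37, 3.03, 3.05 and 3.40 in the hCNR1+/+ mice, in the order of replicates 1 to 4, against 4.06, 3.71, 3.84 and 2.74 in the hCNR1-/- mice. In hCNR1-/- mice 3 values lay above all hCNR1+/+ values and 1, replicate 4, lay below them. The log2 fold change of this probe was 0.37 (SE 0.30), 0.66 without hCNR1-/- replicate 4 and -0.18 without scaling between arrays. The probe with the lower signal (A_55_P1976694) had log2 signals of -0.37, -0.71, -0.78 and -0.70 in the hCNR1+/+ mice, in the order of replicates 1 to 4, against -0.14, -0.20, 0.11 and 0.85 in the hCNR1-/- mice. Its groups did not overlap after scaling, and its log2 fold change was 0.80 (SE 0.27). In unscaled intensity it read 103, 85.1, 64.0 and 38.2 in the hCNR1+/+ mice, in the order of replicates 1 to 4. The hCNR1-/- mice read 113, 69.3, 101 and 52.8, and these unscaled groups overlapped. Both *Septin11* probes were higher on average in hCNR1-/- mice after scaling. On hCNR1-/- replicate 4 the scaled signal of the brighter probe lay below, and that of the dimmer probe above, every hCNR1+/+ array.

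*Septin9*, which bundles actin filaments and binds microtubules, showed close values in the 2 genotypes. Its probe (A_55_P1988882) had log2 signals of 3.21, 2.95, 2.88 and 2.73 in the hCNR1+/+ mice, in the order of replicates 1 to 4, against 3.40, 3.04, 2.77 and 2.70 in the hCNR1-/- mice. The ranges nearly coincided, and the means were 2.94 ± 0.20 and 2.98 ± 0.32 (SD, n = 4). The *Septin9* log2 fold change was 0.037 (SE 0.22), positive under 12 of 20 alternative settings and -0.52 without scaling between arrays.

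**Figure D2:**
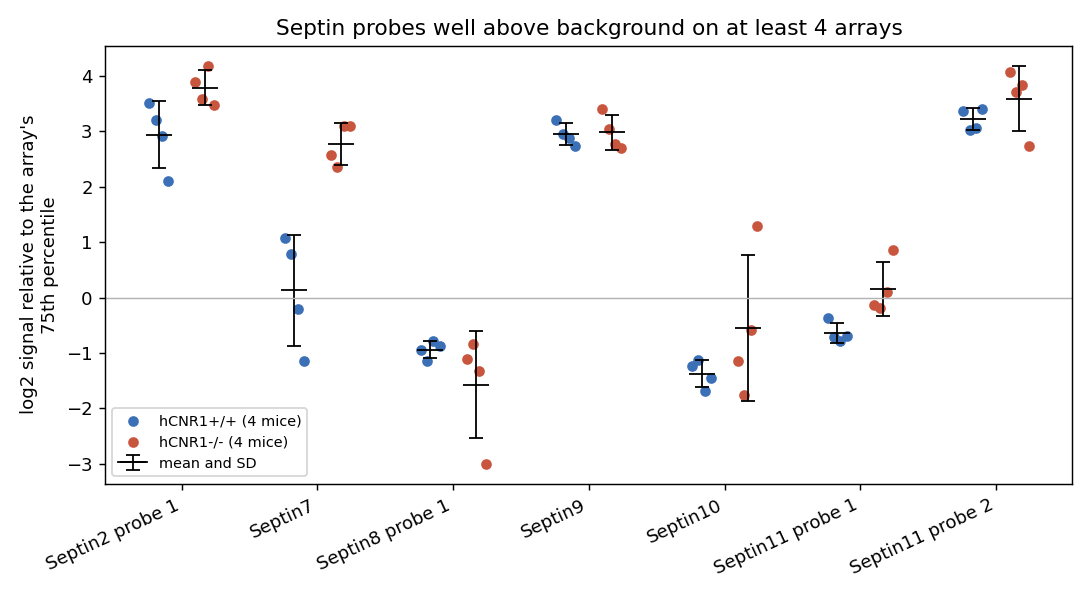
Log2 signal relative to the 75th percentile of the array for the 7 septin probes detected on 4 arrays or more, with 1 point per mouse (blue hCNR1+/+, red hCNR1-/-) and bars for the mean and SD. Septin7 and the first Septin11 probe (A_55_P1976694) are the ones whose groups do not overlap; levels of different probes are not comparable with each other.

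Over the 6 septin genes tested, 5 had a positive and 1 a negative difference, and the median log2 fold change was 0.60, against 0.083 over all genes tested. Without scaling the signs were 3 and 3, and the medians were 0.044 for the septins and -0.47 for all genes. Both septin medians include *Septin7*, which was chosen for this difference, so no rise of the family is read from them. In the main fit *Septin2*, *Septin10*, *Septin11*, *Septin9* and *Septin8* had log2 fold changes of 0.84, 0.82, 0.37, 0.037 and -0.63. By the brightest probe of each gene, *Septin7* was the 1 member whose groups did not overlap. Over all genes tested, 12.7% were higher in hCNR1-/- and 5.04% lower without overlap. The share of genes with a larger rise was 0.217% for *Septin7*, 8.16% for *Septin2*, 8.52% for *Septin10*, 27.9% for *Septin11*, 53.6% for *Septin9* and 88.9% for *Septin8*.

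A difference between 2 probes of the same array does not change when a constant is subtracted from every log2 signal of that array, as the main scaling does, though it can change under quantile normalization or z-scores. The log2 signal of *Septin7* minus that of *Septin2* was -2.43, -2.43, -3.12 and -3.25 in the hCNR1+/+ mice, in the order of replicates 1 to 4, against -1.31, -1.23, -1.09 and -0.38 in the hCNR1-/- mice. This difference was higher in every hCNR1-/- mouse than in any hCNR1+/+ mouse, by 1.80 on average (SE 0.31). The shift of *Septin7* relative to *Septin9* was 2.61 (SE 0.53), relative to *Septin11* 2.27 (SE 0.68) and relative to *Septin8* 3.27 (SE 0.84), each without overlap between the genotypes. The *Septin8* probe was not detected on hCNR1-/- replicate 4. There *Septin7* minus *Septin8* was 6.09, against 3.67, 3.19 and 4.42 in hCNR1-/- replicates 1 to 3, so the shift of 3.27 rests in part on a signal at background. Relative to *Septin10* it was 1.82 (SE 0.67), and the genotypes overlapped through hCNR1-/- replicate 4. The 5 pairs share the *Septin7* probe and are 1 observation seen against 5 references.

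**Figure D3:**
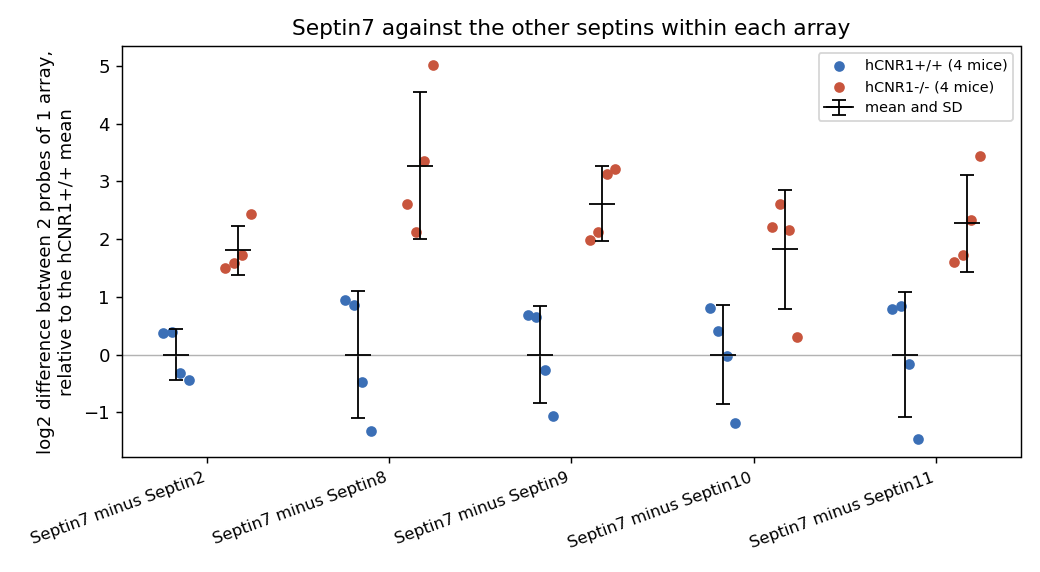
Log2 signal of Septin7 minus that of another septin on the same array, drawn relative to the hCNR1+/+ mean, for 5 septins, with 1 point per mouse (blue hCNR1+/+, red hCNR1-/-) and bars for the mean and SD. The hCNR1-/- mice lie above all hCNR1+/+ mice in each pair but Septin7 minus Septin10, where 1 hCNR1-/- mouse lies within the hCNR1+/+ range.

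The genes whose profile was most like that of *Septin7* were sought among 8338 genes detected on every array, by Pearson correlation of the log2 signal. The highest were *Larp4*, an RNA-binding protein that stabilises messenger RNA (r = 0.997), *Xpo1*, the receptor for nuclear export (r = 0.997), and *Smarca5*, a chromatin remodelling ATPase (r = 0.993). *Top1*, DNA topoisomerase I, and *Hsp90aa1*, a cytosolic chaperone, followed with r = 0.993 and r = 0.992. Their log2 fold changes were 2.89, 2.13, 2.78, 2.22 and 2.63, and after the genotype means were removed the correlations with *Septin7* still ran from 0.961 to 0.986. These correlations pooled the arrays of both genotypes, and none was computed within 1 genotype. The genes were ranked by the pooled r with a gene chosen for its rise. Their large rises follow from that choice, so nothing is read from them. *Septin7* spread more widely in hCNR1+/+ (SD 1.01) than in hCNR1-/- mice (SD 0.38). The hCNR1+/+ arrays therefore weigh most in the correlations taken after the genotype means were removed. Among the septins, r with *Septin7* was 0.90 for *Septin2*, 0.56 for *Septin10*, 0.30 for *Septin11* and 0.17 for *Septin9*, and after the genotype means were removed it was 0.85, 0.40, -0.25 and 0.23. All these values rest on 8 arrays that share their scaling, labelling and slide positions, and they are descriptions.

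The partners of septins were followed in lists of 91 genes, of which 77 were tested. By limma, 2 partner genes were called higher in hCNR1-/- mice and 0 were called lower; at an unadjusted p below 0.05 the counts were 23 and 1, against 14.7% and 6.92% of all genes tested. A share of 2 in 77 compares with 2.94% of all genes tested. The median log2 fold change of the partner genes was 0.37, against 0.083 over all genes tested, and 56 had a positive and 21 a negative difference. Without scaling between arrays 27 were positive and 50 negative, with a median of -0.18 against -0.47 over all genes. Groups did not overlap for 14 partner genes higher and 1 lower in hCNR1-/- mice, against 12.7% and 5.04% of all genes tested.

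*Diaph1*, a formin that nucleates actin filaments, had log2 signals of 0.74, 0.77, 0.54 and 0.59 in the hCNR1+/+ mice, in the order of replicates 1 to 4, against 1.69, 1.60, 1.68 and 2.79 in the hCNR1-/- mice. The groups did not overlap, and the log2 fold change was 1.28 (SE 0.28, limma adjusted p = 0.0409), from 0.72 without scaling to 1.39 without hCNR1-/- replicate 2. These are values of its brightest probe. With the mean of its tested probes the log2 fold change was 0.88 (SE 0.21, limma adjusted p = 0.0515), and *Diaph1* was not called. *Tubb5*, a beta tubulin of microtubules, had log2 signals of 7.66, 7.87, 7.61 and 7.24 in the hCNR1+/+ mice, in the order of replicates 1 to 4, against 8.71, 8.76, 8.47 and 8.60 in the hCNR1-/- mice. Its groups did not overlap either, and the log2 fold change was 1.04 (SE 0.20, limma adjusted p = 0.0303), from 0.48 without scaling to 1.13 without hCNR1+/+ replicate 2. Neither call held when any 1 array other than hCNR1-/- replicate 4 was left out, where 0 partner genes were called higher. Without hCNR1-/- replicate 4, 17 were called. Over all genes tested, those called higher fell from 325 to between 13 and 143 when 1 of the other arrays was left out. The cause of this loss of calls was not tested. Over 20 alternatives the adjusted p ran from 0.00202 to 0.817 for *Diaph1* and from 0.00248 to 0.863 for *Tubb5*.

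Of *Cdc42* and the Borg proteins, which link this GTPase to septin filaments, 5 of 6 genes were tested and 0 were called, with a median log2 fold change of 0.35; *Cdc42* itself had 0.35 (SE 0.35, limma adjusted p = 0.597), but 0.72 without hCNR1-/- replicate 4 (limma adjusted p = 0.0297) and 0.70 with array weights (limma adjusted p = 0.0147), where it was called, and -0.21 without scaling. *Anln*, the scaffold that recruits septins to the cleavage furrow, was not tested because too few arrays measured it. Of the actin filament genes 30 of 32 were tested and 0 were called, with a median of 0.37. *Actb*, beta actin, had a log2 fold change of 0.61 (SE 0.30, limma adjusted p = 0.270).

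Of the microtubule genes 20 of 24 were tested, 1 (*Tubb5*) was called higher and the median was 0.49. The hepatocyte keratins *Krt8* and *Krt18*, partners in the intermediate filaments of this cell, had log2 fold changes of 0.49 (SE 0.24, limma adjusted p = 0.266) and 0.62 (SE 0.32, limma adjusted p = 0.295). Of the exocyst, the complex that tethers secretory vesicles and binds septins, 7 of 8 genes were tested and 0 were called, with a median of -0.23. *Xiap* and *Bcl2*, the targets of ARTS, were both tested, and 0 were called, with log2 fold changes of 1.25 (SE 0.54, limma adjusted p = 0.221) and 0.83 (SE 0.34, limma adjusted p = 0.192). At an unadjusted p below 0.05 the *Cdc42* and Borg list had 1 gene higher, the actin list 7, the microtubule list 7, the keratins 0, the exocyst 1 higher and 1 lower and the ARTS targets 2 higher, where 14.7% and 6.92% of all genes tested were higher and lower.

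**Figure D4:**
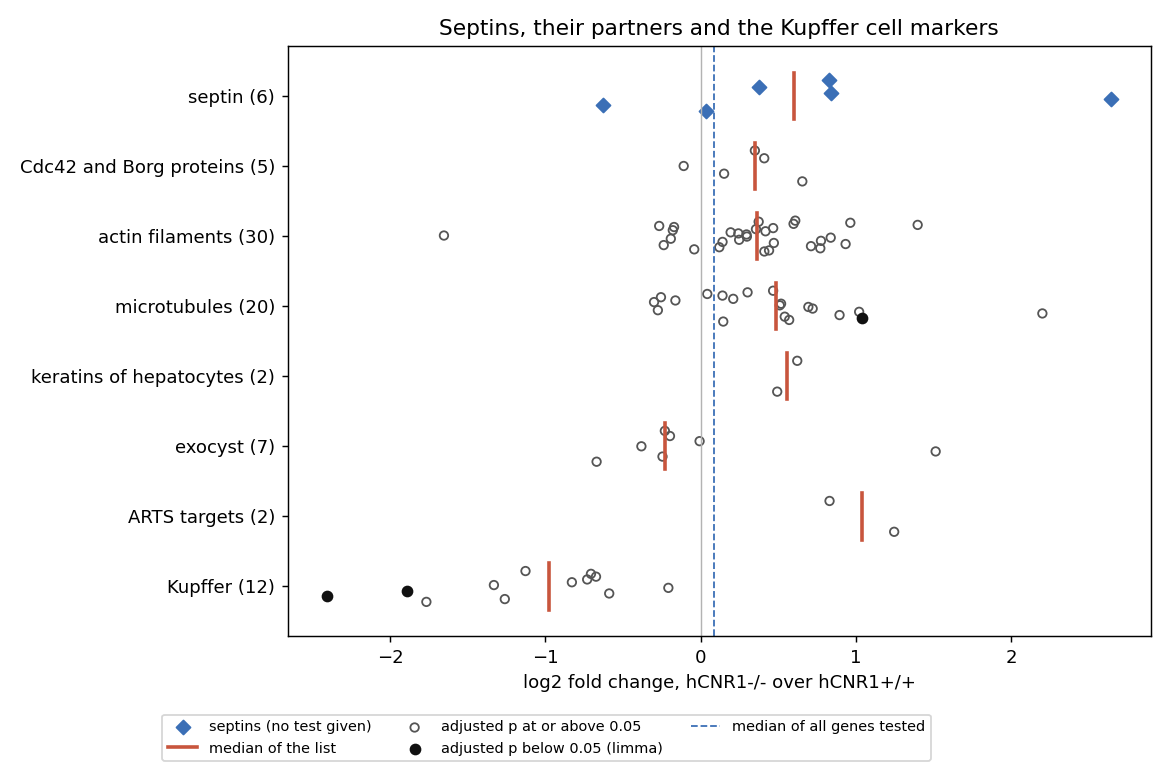
Log2 fold change of hCNR1-/- over hCNR1+/+ mice for the tested genes of the lists named on the axis (number tested in brackets), with septins as diamonds, partner and Kupffer cell genes as circles (filled where the limma adjusted p was below 0.05), red bars for list medians and a dashed line for the median of all genes tested, 0.083. Septin7 stands at 2.65, the other septins between -0.63 and 0.84, and all 12 Kupffer cell genes below 0.

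Markers of other liver cells are given because other cells also carry septins, and in bulk RNA fewer cells of a type cannot be told apart from less RNA per cell. All 12 tested of 16 Kupffer cell markers had lower means in hCNR1-/- mice, and 2 were called lower by limma, where 1.3% of all genes tested were. The mean log2 signal of the list ran from 1.03 to 2.22 in hCNR1+/+ and from -0.05 to 0.72 in hCNR1-/- mice, without overlap. Of these 12 markers, 7 were detected on all 8 arrays. The others, *Clec4f*, *Vsig4*, *Ctss*, *Folr2* and *Mpeg1*, were detected in all 4 hCNR1+/+ mice but in only 2 or 3 hCNR1-/- mice. They met the condition for testing through the hCNR1+/+ arrays alone, and the list mean includes them. *Ctss*, 1 of the 2 called, was detected in 2 of the 4 hCNR1-/- mice. The list median log2 fold change was -0.98, and -0.73 when detection on all 8 arrays was required. *Clec4f*, which defines Kupffer cells, had a mean log2 signal of 0.87 ± 0.54 in hCNR1+/+ and -0.46 ± 0.72 in hCNR1-/- mice (SD, n = 4). Its groups overlapped, it was detected in 3 of the 4 hCNR1-/- mice, and it was not called (limma adjusted p = 0.0897). The part of Kupffer cell RNA in the septin values was not tested. Of the stellate cell markers 3 of 17 were tested and 0 were called, with list means from 0.26 to 0.72 and from -0.33 to 0.48. *Dcn* and *Ecm1* were detected on all 8 arrays, with log2 fold changes of -0.91 (SE 0.42) and -0.23 (SE 0.18). *Acta2* was detected in 3 of the 4 hCNR1+/+ and 2 of the 4 hCNR1-/- mice, with -0.34 (SE 0.48). The probes of *Des*, *Lrat* and *Reln*, like those of *Septin4*, were detected on 0 of 8 arrays. Means over the 12 tested of 16 endothelial markers ran from 0.31 to 1.11 in hCNR1+/+ and from 0.26 to 0.72 in hCNR1-/- mice. Those over the 4 tested of 10 cholangiocyte markers ran from -1.14 to 0.024 and from -1.14 to -0.34. For lymphocytes only 3 of 16 markers were tested, with means from 3.57 to 4.01 and from 3.98 to 5.30. For neutrophils only 2 of 11 were tested, with means from 4.995 to 5.42 and from 4.92 to 5.60. The log2 fold changes of these 2 neutrophil markers had opposite signs, 0.70 and -0.80.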

How the data were processed

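Per the labels, 200 ng of total hepatocyte RNA of each mouse was labelled with Cy3 for mouse arrays of Agilent read in 1 colour. The deposited spot intensity used here was background-corrected within the array by Feature Extraction version 12.0.3.1 and not scaled between arrays. The median signal of each spot and of its background was deposited as well. The authors also deposited a score, which differed by at most 0.005 from log intensities standardised to z-scores per array. Groups came from the sample labels. From each log2 intensity the 75th percentile over 59305 non-control spots was subtracted, array by array. Probes were detected where the software flagged 50% or more of their spots as well above background. Accessions of 28331 of 55681 probes were matched to RefSeq names of GRCm38.p6; the array design names build mm9, so no array coordinates were used. Genes detected on 4 or more arrays, 11072 in all, were tested on their brightest probe in limma (version 3.58.1, R version 4.3.3; lmFit and eBayes), two-sided, with Benjamini-Hochberg adjustment over all of them and a threshold of 0.05. Standard errors are those of this fit, of the same model fitted to every probe for the dimmer *Septin11* probe, and of a difference of 2 means for pairs within an array.

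The members, gene lists and tests were chosen with earlier results of these data known. Named in the text are all members with every probe, partner genes called by limma, *Cdc42*, *Anln*, *Actb*, *Tubb5*, *Krt8* and *Krt18* and the 5 genes most like *Septin7*. For cell types, list summaries are given with defining markers and the tested stellate markers. Kupffer cell markers not detected on every array and hepatocyte markers without overlap between the genotypes are named too. *Xiap* and *Bcl2* are named as the whole of their list. Alternatives were other scalings, the deposited score, normexp on the spot median with an offset of 50, other filters and probe rules, an intensity trend, array weights, a replicate block and each array left out. The labels name separate mice, and the number of arrays limits the precision. Protein sequences were not analysed here, and 1 partner list is counted in the totals but not reported by itself.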

Additional observations from a re-analysis of the deposited data

Results flagged for a closer look

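Of 68 groups of 4 arrays examined, 3 had 1 array far from the other 3, where chance gives about 1 in 20, and all 3 were hCNR1-/- replicate 4, the dimmest array. On it the *Diaph1* log2 signal was 2.79, against 1.60 to 1.69 on the other hCNR1-/- arrays. The mean of the lymphocyte marker list was 5.30 there, against 3.98 to 4.18, and the mean of the neutrophil marker list was 5.60, against 4.92 to 5.01. No septin probe was among these groups.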

How the results depend on the processing

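The *Septin7* log2 fold change was positive under 20 of 20 alternatives, from 1.74 with normexp background correction to 2.96 without hCNR1+/+ replicate 1. With 1 array left out it ran from 2.22 to 2.96. Counts of calls varied far more. Genes called higher numbered 325, but 131 with quantile normalization, 25 with median scaling, 1 without scaling, 30 with the deposited z-scores, 28 with normexp, 8 without a filter on dim probes, 2176 with array weights and 101 with the percentile over probes detected on all 8 arrays, which was added after seeing the data. Genes called lower numbered 144, but 87, 25, 29, 51 and 13 under the first 5 of these, 54 when detection on all 8 arrays was required, 14 without a filter, 646 with array weights and 209 with the added percentile. With 1 array left out these counts ran from 13 (without hCNR1+/+ replicate 3) to 1121 (without hCNR1-/- replicate 4) and from 25 to 323. Septins called higher were 0 with median scaling, no scaling, z-scores, normexp or no filter and 3 with array weights, and 0 to 2 with 1 array left out. Since this contrast chose the family, nothing is read from the septin counts. Partner genes called higher were 0 under these 5 settings, quantile normalization and the added percentile, 1 with the mean of probes, 31 with array weights, and 0 to 17 with 1 array left out. With the replicate number as a block the counts were 0 higher, 0 lower, 0 septins and 0 partner genes. In that fit an unadjusted p was below 0.05 for 1522 genes higher and 732 lower by limma. Deviations of same-numbered arrays from their group means had correlations of 0.21, -0.16, -0.05 and 0.02. Same-numbered arrays also shared a column of the slide. These values cannot settle whether the numbers pair the mice. Without scaling *Cdc42* became -0.21 and *Krt8* -0.062. The cause of these changes was not tested. With 4 arrays per genotype, and with signals near background for 7 of 14 septin probes, small differences were not detectable.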

Other observations

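Of the septins outside the 9 members, *Septin1* had 1 of 2 probes tested, with a mean log2 signal of -2.42 ± 0.28 in hCNR1+/+ and -1.77 ± 0.73 in hCNR1-/- mice (SD, n = 4), and *Septin12* and *Septin14* were detected on 0 of 8 arrays. *Septin3*, known mainly from neurons, had 1 probe (A_55_P2072110) with unscaled intensities from 17648 to 87598 on the 8 arrays and log2 signals of 9.36 ± 0.43 in hCNR1+/+ and 9.57 ± 0.32 in hCNR1-/- mice. Its other probe (A_55_P2178137) was detected on 0 of 8 arrays. Whether the bright probe also binds other transcripts was not tested. The *Septin3* probes were looked at after their values were seen.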
